A study of Mus musculus with 12 samples.

Results

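The 41 genes described here encode the enzymes and regulators of antioxidant defence and glutathione metabolism. They were chosen by name, with earlier results of these data known. All 41 were found among the 55401 genes of the count files by matching Ensembl IDs to symbols. All 41 had enough counts to be tested. RNA-seq was performed on subcutaneous white adipose tissue (scWAT) of female mice, with 12 libraries, 3 in each of 4 groups. The labels and the study do not state whether each library came from 1 mouse. The groups were wild-type (*Jmjd1a* +/+) and *Jmjd1a* HY/HY mice, 16 weeks of age at the start, which were acclimated to 30°C (thermoneutrality) and then housed for 1 week either at 30°C or in the cold at 8°C. The HY/HY mice are named mutants here. The HY allele is a substitution made with CRISPR/Cas9 in C57BL/6J eggs that removes the histone demethylase activity of JMJD1A in every cell of the animal, so an effect of the genotype is not limited to adipocytes, and the females came from a single one of the study's lines.

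Superoxide and hydrogen peroxide arise wherever electrons leak from respiration or oxidases. Superoxide dismutases turn superoxide into hydrogen peroxide, which catalase, the glutathione peroxidases and the peroxiredoxins then remove. Peroxiredoxins are recharged by thioredoxin and thioredoxin reductase, and glutathione peroxidases by glutathione and glutathione reductase, both with electrons from NADPH. Mitochondria hold their own set of these enzymes, with *Sod2*, *Prdx3*, *Txn2*, *Txnrd2* and *Glrx2* in the matrix. When scWAT is exposed to cold, beige adipocytes rich in mitochondria form in it, and the comparison of the genotypes asks how much of the response needs the demethylase.

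In wild-type scWAT, 8 of the 41 genes rose and 3 fell in the cold, where 13.2% of all genes tested rose and 10.9% fell. In mutant scWAT edgeR called none of the 41, but only 0.181% of all genes rose there and 0.0726% fell, and from 2 to 6 members were called with DESeq2, with the replicate block or without replicate 3 at 30°C. The response of 4 genes, *Sod2*, *Txnrd2*, *Txn2* and *Prdx5*, differed between the genotypes, where 2.07% of all genes had a lower response in the mutants, and these 4 were also lower in the mutants than in wild-type mice at 8°C, as were 5.45% of all genes. Of these, *Sod2*, *Txnrd2* and *Txn2* encode proteins of the mitochondrial matrix, and the product of *Prdx5* is found in mitochondria and other compartments. The regulators *Nfe2l2* and *Keap1* were not called by edgeR with TMM normalisation, and with library totals in its place both were called lower by cold in wild-type mice.

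The regions before the start sites of these 4 genes are shown because the 4 moved together. RefSeq windows on GRCm38.p6 (mm10) from 250 bases before to 50 bases after each start site were at hand for 35 of the 41 genes (all but *Sod3*, *Prdx6*, *Gclc*, *Gsr*, *Gsta4* and *Hmox1*) and are printed here for the 250 bases before it, 5′ to 3′ on the strand of the gene. *Sod2* (ENSMUSG00000006818.5) lies on chromosome 17 from 13007839 to 13018119, and *Txnrd2* (ENSMUSG00000075704.16) on chromosome 16 from 18426417 to 18479073. *Txn2* (ENSMUSG00000005354.16) lies on chromosome 15 from 77915051 to 77928994, and *Prdx5* (ENSMUSG00000024953.17) on chromosome 19 from 6906697 to 6910106. The printed stretches are chr17:13007589-13007838 (plus strand), chr16:18426167-18426416 (plus strand), chr15:77928995-77929244 (minus strand) and chr19:6910107-6910356 (minus strand). Capitals mark matches on either strand to the GC box GGGCGG and to the ETS site CCGGAAG.
Sod2: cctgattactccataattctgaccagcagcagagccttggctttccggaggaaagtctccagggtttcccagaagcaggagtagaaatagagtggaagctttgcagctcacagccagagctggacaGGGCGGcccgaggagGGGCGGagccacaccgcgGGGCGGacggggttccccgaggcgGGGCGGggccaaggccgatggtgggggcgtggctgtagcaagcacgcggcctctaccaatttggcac
Txnrd2: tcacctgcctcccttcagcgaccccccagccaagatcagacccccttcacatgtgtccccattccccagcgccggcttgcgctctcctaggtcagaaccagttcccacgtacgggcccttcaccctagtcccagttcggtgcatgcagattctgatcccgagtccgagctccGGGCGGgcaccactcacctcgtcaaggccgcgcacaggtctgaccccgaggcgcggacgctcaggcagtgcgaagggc
Txn2: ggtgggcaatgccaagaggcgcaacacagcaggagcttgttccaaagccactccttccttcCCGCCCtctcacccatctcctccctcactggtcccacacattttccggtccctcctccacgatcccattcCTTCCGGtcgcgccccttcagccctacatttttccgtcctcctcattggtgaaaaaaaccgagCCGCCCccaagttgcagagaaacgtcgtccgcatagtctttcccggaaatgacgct
Prdx5: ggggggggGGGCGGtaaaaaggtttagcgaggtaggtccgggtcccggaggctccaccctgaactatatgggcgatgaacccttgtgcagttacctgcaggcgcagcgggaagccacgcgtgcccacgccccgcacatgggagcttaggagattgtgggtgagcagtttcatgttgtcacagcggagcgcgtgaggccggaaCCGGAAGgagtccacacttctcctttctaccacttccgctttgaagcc

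All 4 windows held a GC box, with 4 matches in *Sod2*, 2 in *Txn2* and 1 each in *Txnrd2* and *Prdx5*. The GC box was found in 28 of the 35 genes (80.0%) and in 38.2% of all 27025 genes with a window. These 27025 genes were not limited to those tested in scWAT, so no motif share here is set against expressed genes alone. The ETS site was found in *Txn2* and *Prdx5*, in 5 of the 35 genes (14.29%) and in 9.93% of all genes. The core of the antioxidant response element, TGACNNNGC, to which NRF2 binds, was found in 9 of the 35 genes (25.71%), namely *Gclm*, *Gsta3*, *Mgst1*, *Mt2*, *Nfe2l2*, *Prdx1*, *Sod1*, *Srxn1* and *Txnrd1*, and in 13.99% of all genes. It had no match in the windows of *Sod2*, *Txnrd2*, *Txn2* and *Prdx5*. The NRF1 element was found in *Gpx4* and *Gss* (5.71% of the 35 and 5.19% of all genes). The ERR element AAGGTCA and the CRE TGACGTCA were found in 0 of the 35 genes and in 5.38% and 2.03% of all genes. No matches of different motifs overlapped in the 4 windows printed, and a match shows the letters only, not a bound site.

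The libraries held from 13592629 to 26352081 counts on the sense strand of genes. Levels are given as CPM, the counts scaled to a fixed library total after TMM normalisation. Since pairs with several alignments were left uncounted, members with near-identical copies, such as *Prdx1*, *Txn1*, *Gpx4*, *Gstp1* and the *Gstm* genes, may be undercounted. Calls were made in edgeR at an adjusted p below 0.05, with adjustment over all 16540 genes tested. *Kdm3a*, the gene of JMJD1A, was not called between the genotypes at 30°C (adjusted p = 0.753) or at 8°C (adjusted p = 0.604), and counts do not show which allele was read. *Ucp1*, the uncoupling protein of thermogenic adipocytes, lay between 0.433 and 4.58 CPM in the 30°C wild-type group and between 5048 and 6055 CPM at 8°C. Replicate 2 of wild-type mice at 30°C stood apart by 10 markers of skeletal muscle, which summed to 1427 CPM there and to 4.24 to 24.2 CPM in the other 11 libraries. Replicate 3 of the mutants at 30°C had the highest level of 10 adipocyte markers of its group (59320 CPM against 26150 and 35170 CPM). So did replicate 3 of wild-type mice at 30°C (49500 CPM against 26990 and 31550 CPM). The adipocyte markers were abundant in all 12 libraries (26150 to 61290 CPM), and lymphocyte markers were scarce (5.74 to 27 CPM). Sums of 10 markers of mammary epithelium were highest in the 30°C wild-type group (2626 to 4106 CPM). The 8°C wild-type group held 1581 to 1736 CPM. Mutant libraries held 675 to 1752 CPM (30°C) and 994 to 1466 CPM (8°C). Of the 10, cold lowered 2 in the wild type (20%, against 10.9% of all genes). The part of these markers in the results of *Gpx3*, *Gclc* and *Ggt1* was not tested.

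In wild-type scWAT, 8 members rose in the cold, which is 19.5% of the 41 against 13.2% of all genes tested, and 3 fell, which is 7.32% against 10.9%. The median log2 fold change of the 41 genes was 0.161, where that of all genes was −0.0693. The members that rose were *Sod2*, *Gpx4*, *Prdx3*, *Prdx5*, *Srxn1*, *Txn2*, *Txnrd2* and *Glrx*. Those that fell were *Gpx3*, *Gclc* and *Gstt1*. With library totals in place of TMM, the median of all genes moved to −0.407, and 8 members were called higher and 10 lower, the latter with *Txn1*, *Gss*, *Gsr*, *Gstm1*, *Gstm2*, *Nfe2l2* and *Keap1* added. DESeq2 called 13 higher and 3 lower, with *Sod1*, *Sod3*, *Prdx1*, *Glrx2* and *Gsta4* added. Between 9 and 16 members were called when any 1 library was left out, and 10 without the library with muscle transcripts. The share of all genes called was not taken for any alternative fit, here or below. The summed level of 8 endothelial markers was also higher at 8°C (1135 to 1417 CPM against 599 to 929 CPM). Of these, 4 were called higher (50%, against 13.2% of all genes), and the part of the endothelial markers in the result was not tested.

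**Figure D1:**
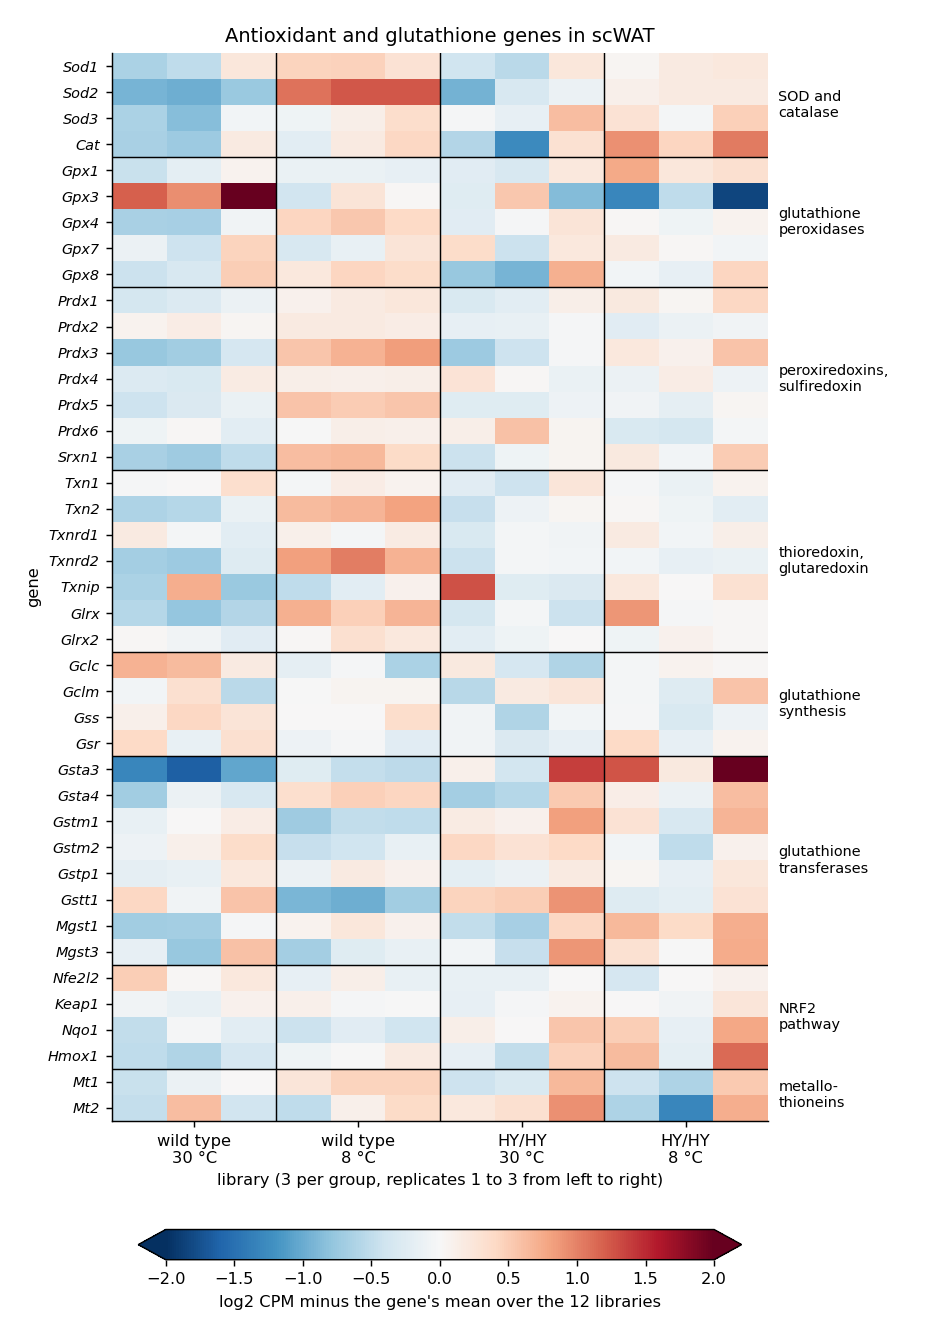
Level of each of the 41 genes (rows, grouped by role) in each of the 12 libraries (columns, 3 per group), as log2 CPM minus the mean of that gene over the 12 libraries. *Sod2*, *Prdx5*, *Txn2* and *Txnrd2* are highest in the 3 libraries of wild-type mice at 8°C, and *Gpx3* is highest in those of wild-type mice at 30°C.

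Among the superoxide dismutases and catalase, only *Sod2*, the manganese enzyme of the mitochondrial matrix, was called in wild-type mice. Its level was 120, 117 and 137 CPM in the 3 wild-type libraries at 30°C and 484, 542 and 544 CPM in those at 8°C, and the groups did not overlap. The log2 fold change was 2.07 (SE 0.185, adjusted p = 3.73e-05), a 4.20-fold rise and the largest of the 41 genes. In the mutants it was at 119, 183 and 212 CPM at 30°C and at 245, 260 and 260 CPM at 8°C. These groups did not overlap either, but the log2 fold change of 0.58 (95% interval 0.187 to 0.966) was not called (adjusted p = 0.188). The cold response of the mutants minus that of wild-type mice was −1.495 on the log2 scale (SE 0.253, adjusted p = 0.0146). This call was lost in 4 of 19 alternatives, each of which left out 1 library, with an adjusted p of up to 0.0557 (leaving out replicate 1 of the wild-type 30°C group).

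*Sod1*, the copper and zinc enzyme of the cytosol, ranged from 436 to 795 CPM in wild-type mice at 30°C and from 828 to 932 CPM at 8°C, with a log2 fold change of 0.65 (adjusted p = 0.0711). The secreted *Sod3* was at 142, 121 and 211 CPM in wild-type mice at 30°C and at 208, 240 and 280 CPM at 8°C. In the mutants it was at 216, 197 and 337 CPM at 30°C and at 268, 215 and 306 CPM at 8°C. Its log2 fold change of 0.62 by cold in wild-type mice was not called (adjusted p = 0.0874), but was past the limit in DESeq2 (adjusted p = 0.0471) and with the replicate block (adjusted p = 0.00656). The log2 difference of *Sod3* between the genotypes at 30°C was 0.66 (adjusted p = 0.187, and 0.0339 with the block). *Cat*, the catalase of peroxisomes, with the highest mean CPM of these 4 genes, was at 551, 523 and 975 CPM in wild-type mice at 30°C and at 744, 978 and 1145 CPM at 8°C, which overlapped. In the mutants it was at 574, 356 and 1062 CPM at 30°C and at 1624, 1164 and 1778 CPM at 8°C, which did not overlap. Its log2 fold change in the cold was 0.48 in wild-type mice (adjusted p = 0.359) and 1.20 in the mutants (adjusted p = 0.191), and the difference between these responses was not called (0.71, adjusted p = 0.561).

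Of the thioredoxin and glutaredoxin genes, the mitochondrial pair *Txn2* and *Txnrd2* and the cytosolic *Glrx* rose in wild-type mice. *Txnrd2*, the reductase that recharges mitochondrial thioredoxin, was at 25.6, 24.6 and 34.3 CPM in wild-type mice at 30°C and at 72.1, 83.5 and 66.6 CPM at 8°C. In the mutants the level was 30.3, 40.0 and 39.4 CPM at 30°C and 39.4, 36.6 and 37.4 CPM at 8°C, with all 3 values at 8°C inside the range at 30°C. The log2 fold change was 1.40 in wild-type mice (SE 0.15, adjusted p = 9.12e-05) and 0.05 in the mutants (95% interval −0.274 to 0.371, adjusted p = 0.91). The responses differed by −1.35 (SE 0.21, adjusted p = 0.0113), and this was the only one of the 4 such calls to hold in all 19 alternative fits, though none of the 4 passed a stricter limit of 0.01. Counting without strand kept 92.8% of the sense counts of *Txnrd2*.

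*Txn2*, the thioredoxin of mitochondria, was at 125, 128 and 174 CPM in wild-type mice at 30°C and at 296, 305 and 334 CPM at 8°C. In the mutants it was at 138, 178 and 195 CPM at 30°C and at 193, 179 and 164 CPM at 8°C. The wild-type groups were thus apart, and the mutant groups overlapped. The log2 fold change was 1.13 in wild-type mice (SE 0.162, adjusted p = 5.69e-04) and 0.07 in the mutants (95% interval −0.28 to 0.418), a difference of −1.06 (SE 0.227, adjusted p = 0.0357). That call was lost in 11 of 19 alternatives, with an adjusted p of up to 0.104 (leaving out replicate 1 of the wild-type 30°C group).

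*Glrx*, the cytosolic glutaredoxin that removes glutathione from protein thiols, rose from 7.65 ± 0.599 CPM (mean ± SD, n = 3) to 18.4 ± 1.54 CPM in wild-type mice (log2 1.27, SE 0.224, adjusted p = 0.0022). The mitochondrial *Glrx2* had 31.7 ± 2.69 CPM at 30°C and 38.4 ± 3.93 CPM at 8°C and was not called (log2 0.28, adjusted p = 0.0811). The cytosolic counterparts of the mitochondrial pair were not called, and the log2 fold change in wild-type mice was −0.05 for *Txn1* (95% interval −0.413 to 0.307) and 0.09 for *Txnrd1* (95% interval −0.174 to 0.355). *Txnip*, which binds and inhibits thioredoxin, had the highest mean CPM of this group and differed widely within groups. It was at 593, 1507 and 549 CPM in wild-type mice at 30°C, and the high value was in the library with muscle transcripts. At 8°C wild-type mice had 646, 791 and 974 CPM. The mutants had 2219, 775 and 752 CPM at 30°C and 1056, 923 and 1129 CPM at 8°C, and *Txnip* was called in no comparison.

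Among the peroxiredoxins, which reduce peroxides at a reactive cysteine, *Prdx3* and *Prdx5* rose in wild-type mice together with *Srxn1*, the sulfiredoxin that repairs overoxidised peroxiredoxins. All 7 genes of this group had a positive log2 fold change in wild-type mice, with a median of 0.404. *Prdx3*, the peroxiredoxin of the mitochondrial matrix, rose from 148 ± 24.0 to 358 ± 33.4 CPM (log2 1.28, SE 0.197, adjusted p = 9.26e-04). In the mutants the level was 172 ± 42.6 CPM at thermoneutrality and 272 ± 48.9 CPM in the cold (log2 0.66, adjusted p = 0.168), and its responses were not called different (−0.62, 95% interval −1.21 to −0.0162, adjusted p = 0.318). *Srxn1* rose from 28.3 ± 2.05 to 63.9 ± 6.22 CPM in wild-type mice (log2 1.18, SE 0.158, adjusted p = 3.87e-04) and was at 39.6 ± 6.62 and 51.3 ± 10.1 CPM in the mutants. The difference of its responses was −0.80 (adjusted p = 0.0947).

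*Prdx5* was at 181, 195 and 219 CPM in wild-type mice at 30°C and at 355, 340 and 354 CPM at 8°C. In the mutants it was at 203, 202 and 223 CPM at 30°C and at 230, 212 and 247 CPM at 8°C, so that its 3 highest libraries were the wild-type libraries at 8°C. The log2 fold change was 0.82 in wild-type mice (SE 0.114, adjusted p = 4.75e-04) and 0.13 in the mutants (95% interval −0.115 to 0.378). The difference of −0.69 (SE 0.16, adjusted p = 0.0487) was close to the limit and was lost in 13 of 19 alternatives, with an adjusted p of up to 0.144 (library totals in place of TMM). *Prdx1*, the peroxiredoxin gene with the highest mean CPM, was at 402, 424 and 471 CPM in wild-type mice at 30°C and at 540, 581 and 596 CPM at 8°C (log2 0.40, adjusted p = 0.0677). In the mutants it was at 413, 444 and 552 CPM at 30°C and at 584, 526 and 678 CPM at 8°C (log2 0.34, adjusted p = 0.321). *Prdx2*, *Prdx4* and *Prdx6* had uncalled log2 fold changes of 0.09, 0.23 and 0.16 in wild-type mice and of −0.03, −0.09 and −0.50 in the mutants. DESeq2 called *Prdx2* lower in the mutants at 8°C (−0.32, adjusted p = 0.00114) and the response of *Prdx6* smaller (−0.69, adjusted p = 0.0483), which edgeR did not.

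**Figure D2:**
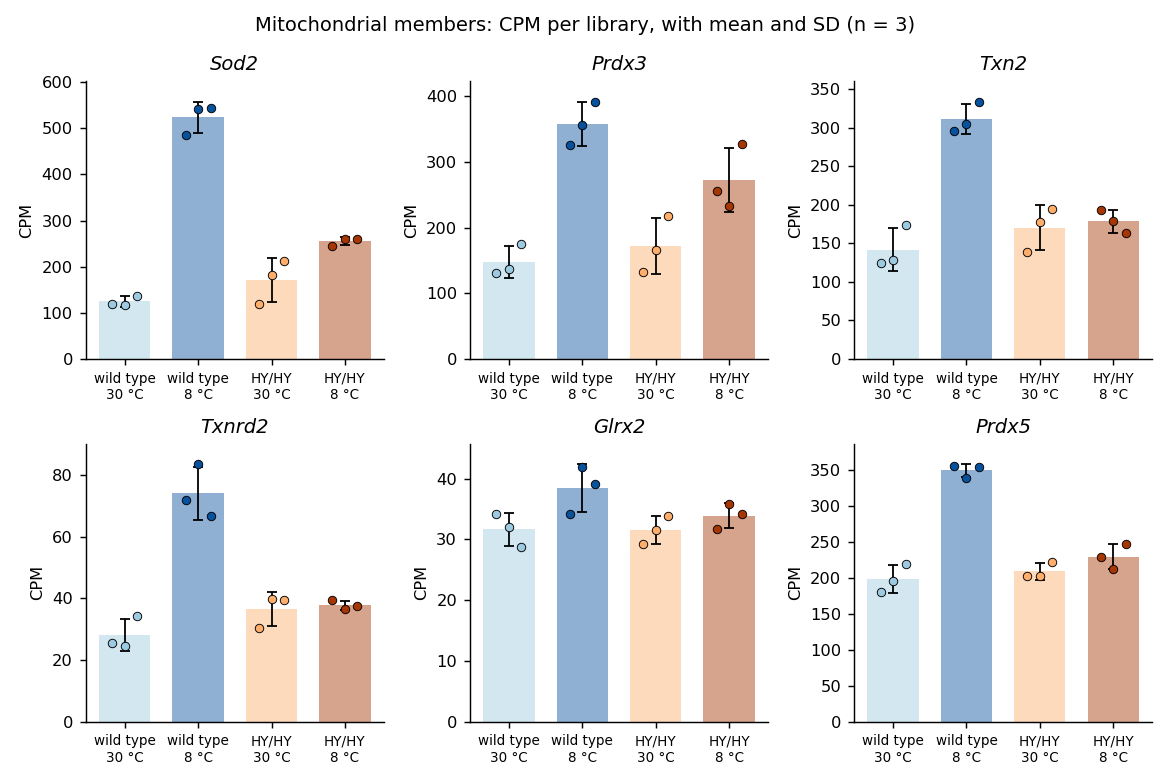
CPM of the 5 genes of the mitochondrial matrix and of *Prdx5* in the 4 groups, with a point for each library, bars for the mean and error bars for the SD (n = 3). In all 6 panels the wild-type libraries at 8°C lie above those at 30°C, and for *Sod2*, *Txn2*, *Txnrd2* and *Prdx5* also above all 6 mutant libraries.

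As a group, the 5 genes of the mitochondrial matrix reached a median log2 change of 1.28 in wild-type mice, with 4 called higher (80%, against 13.2% of all genes). In the mutants the median was 0.104, with 0 called, where 0.181% of all genes were called higher and 0.0726% lower. The summed level of these 5 genes was 435 to 549 CPM in the 30°C wild-type group and 1212 to 1376 CPM at 8°C. In the mutants the sum was 450 to 697 CPM at 30°C and 746 to 823 CPM at 8°C. Both pairs of groups were apart, and at 8°C every mutant library was below every wild-type library. The 23 members without a listed organelle had a median of 0.0768 in wild-type mice. Of these, 2 were called higher and 2 lower (8.7% each, against 13.2% and 10.9% of all genes). The markers of thermogenic adipocytes moved alongside: the sum of 10 of them was 81.3 to 207 CPM and 9411 to 10570 CPM in wild-type mice at 30°C and 8°C, and 69.4 to 259 CPM and 581 to 1875 CPM in the mutants. All 10 markers rose in wild-type mice (100%, against 13.2% of all genes) and 4 rose in the mutants (40%, against 0.181%). At 8°C, 9 were lower in the mutants (90%, against 5.45% of all genes). In bulk tissue, fewer cells of a type and less RNA per cell cannot be told apart, and the part of the thermogenic adipocytes in these differences was not tested.

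Among the glutathione peroxidases, which reduce peroxides with glutathione, *Gpx4* rose and *Gpx3* fell in wild-type mice. *Gpx4*, which reduces lipid peroxides in membranes, rose from 551 ± 136 to 1024 ± 53.9 CPM (log2 0.89, SE 0.185, adjusted p = 0.0056), and it was at 754 ± 131 and 747 ± 39.9 CPM in the mutants (log2 −0.01). The difference of these responses was −0.90 (adjusted p = 0.108), past the limit in DESeq2 (−0.93, adjusted p = 0.0106). *Gpx3*, the secreted enzyme of plasma, with the highest mean CPM of the 41 genes, was at 3600, 2995 and 7200 CPM in wild-type mice at 30°C and at 1211, 1893 and 1600 CPM at 8°C. In the mutants it was at 1335, 2297 and 868 CPM at 30°C and at 635, 1105 and 440 CPM at 8°C. The wild-type groups did not overlap, and all 6 mutant libraries lay below the 3 wild-type libraries at 30°C. The log2 fold change in the cold was −1.55 in wild-type mice (SE 0.445, adjusted p = 0.0262) and −1.05 in the mutants (95% interval −2.0 to −0.0872, adjusted p = 0.304). The fall in wild-type mice was lost in 4 of 20 alternatives, each of which left out 1 wild-type library, with an adjusted p of up to 0.0945 (without replicate 1 at 8°C). *Gpx1* was at 367 ± 65.2 and 376 ± 4.36 CPM in wild-type mice and at 388 ± 80.9 and 567 ± 115 CPM in the mutants at 30°C and 8°C. Its log2 difference of 0.60 between the genotypes at 8°C was not called (adjusted p = 0.0842), but was past the limit in DESeq2 (0.58, adjusted p = 0.0326) and in 3 other alternatives. *Gpx7* and *Gpx8*, of the endoplasmic reticulum, had log2 fold changes of −0.06 and 0.37 in wild-type mice and of −0.03 and 0.21 in the mutants.

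Of the 4 genes that make and reduce glutathione, *Gclc*, the catalytic subunit of the enzyme that limits its synthesis, fell in wild-type mice. It was at 111, 107 and 78.2 CPM at 30°C and at 61.0, 67.7 and 44.3 CPM at 8°C, without overlap (log2 −0.78, SE 0.21, adjusted p = 0.0206). This call was lost in 3 of 20 alternatives, with an adjusted p of up to 0.0871 (leaving out replicate 3 of the wild-type 8°C group), and 1 of these 3 left out the library with muscle transcripts. In the mutants *Gclc* was at 78.6, 54.6 and 45.5 CPM at 30°C and at 67.0, 72.6 and 69.7 CPM at 8°C, so that the order of the means was reversed. The difference between the responses, 1.00, was the largest positive one of the 41 genes and was not called (SE 0.296, adjusted p = 0.116), while it was past the limit in DESeq2 (0.98, adjusted p = 0.0448). *Gsr*, glutathione reductase, with the highest mean CPM of this group, was at 93.9, 63.9 and 88.6 CPM in wild-type mice at 30°C and at 66.1, 70.5 and 61.0 CPM at 8°C. In the mutants it was at 67.9, 58.3 and 63.6 CPM at 30°C and at 94.4, 63.6 and 74.8 CPM at 8°C, and it was not called, except lower by cold in wild-type mice with library totals (−0.65, adjusted p = 0.0135). *Gclm*, the modifier subunit, and *Gss*, glutathione synthetase, had log2 fold changes of 0.08 and −0.13 in wild-type mice and of 0.14 and 0.08 in the mutants.

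Among the 8 glutathione transferases, which attach glutathione to reactive compounds, only *Gstt1* was called by cold, and alternative fits added others given below. It was at 67.8, 48.5 and 75.6 CPM in wild-type mice at 30°C and at 27.2, 25.9 and 31.6 CPM at 8°C (log2 −1.18, SE 0.198, adjusted p = 0.00162). In the mutants it was at 69.1, 71.9 and 95.4 CPM at 30°C and at 42.5, 44.7 and 62.5 CPM at 8°C. In both genotypes the groups did not overlap, with a log2 fold change of −0.66 in the mutants (95% interval −1.08 to −0.235, adjusted p = 0.168). *Mgst1*, a transferase of microsomal membranes with the highest mean CPM of the 8, was at 490, 498 and 785 CPM in wild-type mice at 30°C and at 832, 934 and 845 CPM at 8°C. In the mutants it was at 568, 502 and 1064 CPM at 30°C and at 1250, 1033 and 1316 CPM at 8°C. It was not called by cold in either genotype (log2 0.56, adjusted p = 0.156, and log2 0.75, adjusted p = 0.245). *Gsta4*, *Gstm1*, *Gstm2*, *Gstp1* and *Mgst3* had log2 fold changes between −0.57 (*Gstm1*) and 0.77 (*Gsta4*) in wild-type mice and were not called.

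**Figure D3:**
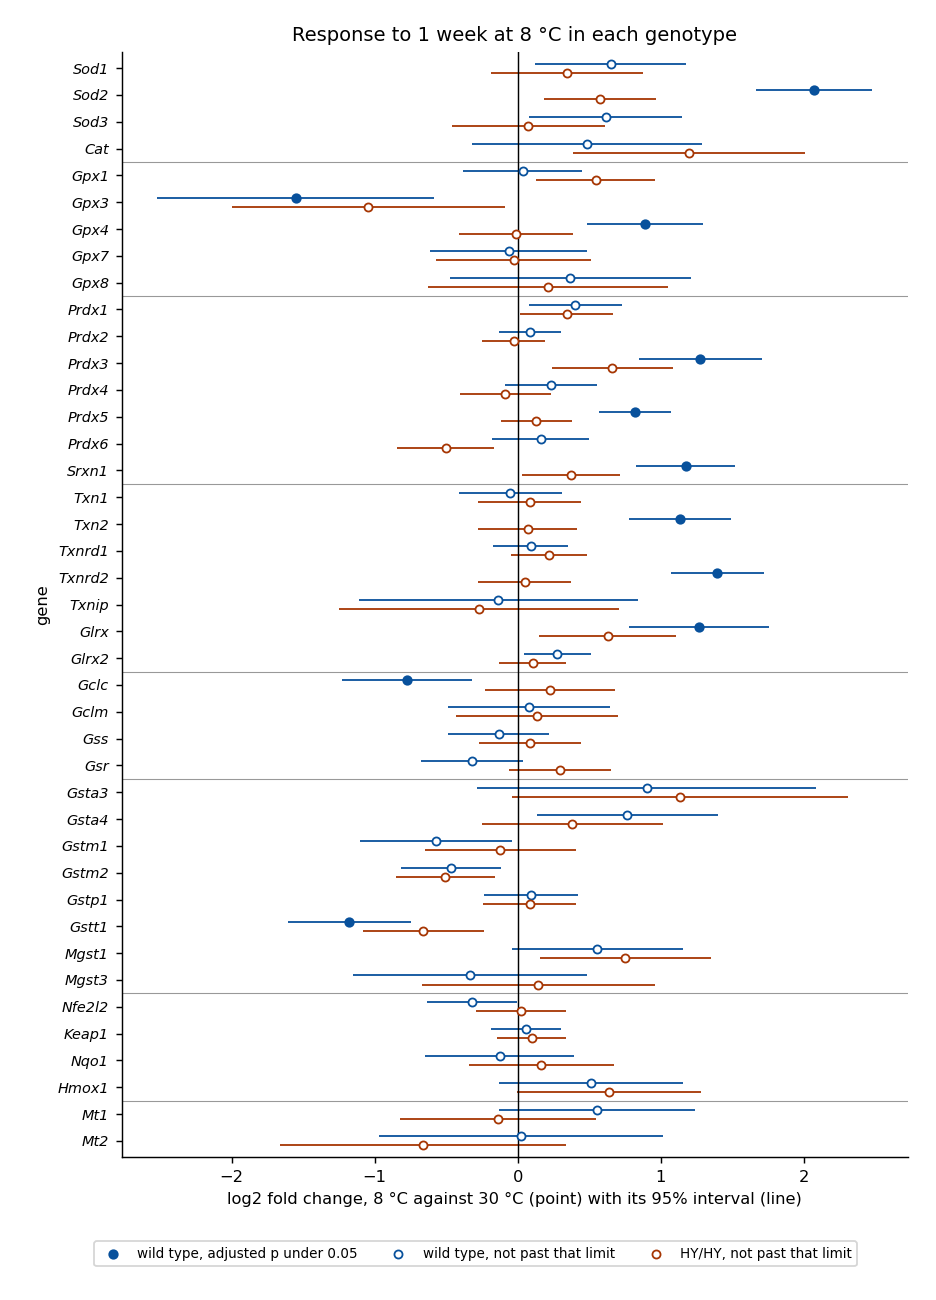
Log2 fold change at 8°C against 30°C of each of the 41 genes in wild-type mice (blue) and in the mutants (orange), with 95% intervals from the fit of all 12 libraries. Filled points are the 11 members called in wild-type mice, and no member was called in the mutants.

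In mutant scWAT, 0 of the 41 genes were called higher and 0 lower in the cold by edgeR, where 0.181% of all genes were called higher and 0.0726% lower. The median log2 fold change of the 41 genes was 0.104, that of all genes −0.0149, and 12 members had an unadjusted p under 0.05, of which 8 were higher and 4 lower at 8°C. The share of all genes under that unadjusted limit was not taken, so this count does not set the 41 genes apart. The largest values were those of *Cat* (1.20) and *Gsta3* (1.14) upward, and of *Gpx3* (−1.05) and *Mt2* (−0.66) downward. DESeq2 called 2 members, *Cat* (1.21, adjusted p = 0.0325) and *Prdx3* (0.67, adjusted p = 0.0407). With the replicate number as a block, 3 members were called, *Cat* (1.30, adjusted p = 0.0383), *Prdx3* (0.68, adjusted p = 0.0323) and *Gstt1* (−0.66, adjusted p = 0.0317). Without replicate 3 at 30°C, 6 members were called higher, *Sod2* (0.76), *Cat* (1.71), *Gpx1* (0.73), *Prdx3* (0.87), *Gsta4* (0.87) and *Mgst1* (1.17), with adjusted p between 0.0193 and 0.0474. Leaving out this 1 library thus moved the count from 0 to 6. Without the share of all genes called in the same fits, these counts do not set the 41 genes apart.

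At 8°C, 4 members were lower in the mutants than in wild-type mice, which is 9.76% of the 41 against 5.45% of all genes, and 2 were higher, which is 4.88% against 1.91%. The median of the 41 genes was −0.0144 and that of all genes 0.0117. The 4 lower genes were *Sod2* (log2 −1.04, SE 0.18, adjusted p = 0.00657), *Txnrd2* (−0.97, SE 0.149, adjusted p = 0.00356), *Txn2* (−0.80, SE 0.161, adjusted p = 0.0128) and *Prdx5* (−0.61, SE 0.113, adjusted p = 0.00926). In each of them the 3 values of the mutants at 8°C, given above, lay below the 3 of wild-type mice. DESeq2 called 5 members lower and 5 higher, with *Prdx2* lower and *Gpx1*, *Gstm1* and *Nqo1* higher added. The calls of *Sod2*, *Txnrd2* and *Prdx5* held in all 20 alternatives, and that of *Txn2* was lost when replicate 3 of either group was left out (adjusted p of up to 0.0691). These differences and those between the cold responses both use the wild-type libraries at 8°C and are not independent of each other.

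The 2 higher genes were glutathione transferases. *Gsta3* was at 63.5, 54.0 and 52.0 CPM in wild-type mice and at 179, 85.6 and 471 CPM in the mutants at 8°C, where replicate 3 was far above the other two. The log2 difference was 2.12 (SE 0.556, adjusted p = 0.0404), and the call was lost in 6 of 20 alternatives, among them leaving out any 1 of the wild-type libraries at 8°C. Without replicate 3 of the mutants it was 1.23 (adjusted p = 0.18). At 30°C it was at 30.2, 24.1 and 36.4 CPM in wild-type and at 80.3, 58.1 and 196 CPM in the mutants, also without overlap (log2 1.88, adjusted p = 0.107). The difference of *Gstt1* was 0.82 (SE 0.198, adjusted p = 0.0287) and, without the same library, 0.63 (adjusted p = 0.128). That call was lost in 5 of 20 alternatives, which again included each wild-type library at 8°C. *Gstm1* was at 133, 154 and 152 CPM in wild-type and at 264, 174 and 348 CPM in the mutants at 8°C, against 196, 217 and 239 CPM and 242, 230 and 382 CPM at 30°C. It did not overlap at 8°C and was not called there (log2 0.84, adjusted p = 0.0599), while DESeq2 called it (0.82, adjusted p = 0.0155). Markers of macrophages were higher in the same comparison: the sum of 10 was 160 to 175 CPM in wild-type and 281 to 370 CPM in the mutants. Of these, *Cd163*, *Mrc1* and *Csf1r* were called higher (30%, against 1.91% of all genes). So were 2 of 10 adipocyte markers, *Lep* and *Retn* (20%). The part of these markers in the differences of the transferases was not tested.

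**Figure D4:**
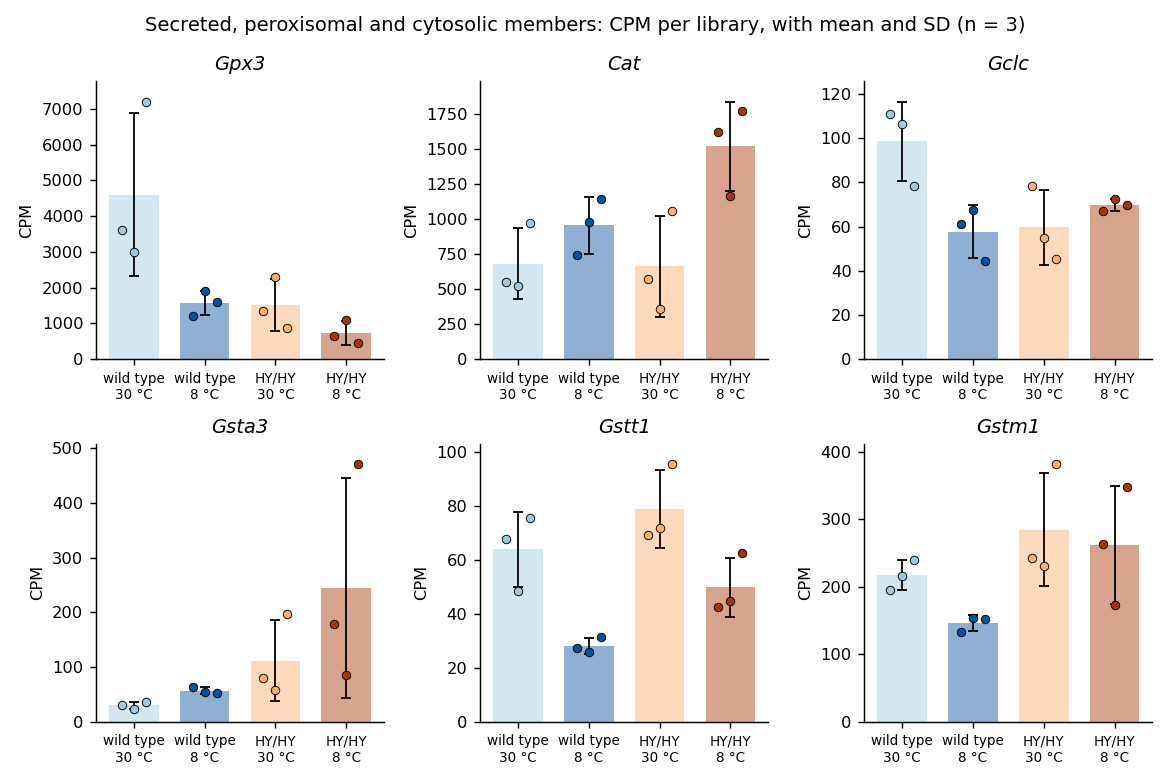
CPM of *Gpx3*, *Cat*, *Gclc*, *Gsta3*, *Gstt1* and *Gstm1* in the 4 groups, with a point for each library, bars for the mean and error bars for the SD (n = 3). *Gpx3* is highest in wild-type mice at 30°C, *Gsta3* ranges from 85.6 to 471 CPM in the mutants at 8°C, and *Gstt1* is lowest in wild-type mice at 8°C.

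At 30°C edgeR called 0 of the 41 genes between the genotypes in either direction, where 0.568% of all genes were higher and 0.49% lower in the mutants. The median of the 41 genes was 0.217 and that of all genes −0.00809, and 12 members had an unadjusted p under 0.05, of which 7 were higher and 5 lower. For this count, too, no share of all genes was taken. The largest differences were those of *Gsta3* (1.88) and *Sod3* (0.66) upward and of *Gpx3* (−1.62, 95% interval −2.59 to −0.645, adjusted p = 0.0944) and *Gclc* (−0.73, 95% interval −1.18 to −0.272, adjusted p = 0.101) downward. DESeq2 called *Gpx3* (−1.61, adjusted p = 0.00506) and *Gclc* (−0.72, adjusted p = 0.0291). *Sod2*, *Txnrd2*, *Txn2* and *Prdx5* had log2 differences between 0.08 and 0.46 at 30°C, and none of the 4 was called.

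The cold responses of the genotypes differed in 4 of the 41 genes, all with a smaller response in the mutants. This is 9.76% of the members against 2.07% of all genes, and 0 members had a larger response, against 0.169% of all genes. By unadjusted p under 0.05, 8 members had a smaller and 2 a larger log2 response in the mutants, and DESeq2 called 7 and 1, with *Gpx4*, *Prdx6*, *Srxn1* and *Gclc* added. No share of all genes was taken for the counts by unadjusted p. The median of the 41 genes was −0.0367, that of the 5 mitochondrial matrix genes −1.06 and that of all genes 0.0429. Between 1 and 6 members were called when any 1 library was left out, and 2, *Sod2* and *Txnrd2*, without the library with muscle transcripts. The 7 peroxiredoxin and sulfiredoxin genes all had a negative difference, from −0.80 (*Srxn1*) to −0.06 (*Prdx1*), with 1 called (14.3%, against 2.07% of all genes). The 4 genes of glutathione synthesis and reduction all had a positive difference, from 0.06 (*Gclm*) to 1.00 (*Gclc*). None of them was called by edgeR, except *Gclc* with the replicate block (adjusted p = 0.0335) and without replicate 1 of the mutants at 30°C (adjusted p = 0.0226).

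The NRF2 pathway genes and the metallothioneins were called in no comparison by edgeR with TMM normalisation in the fit of all 12 libraries. *Nfe2l2*, which encodes the transcription factor NRF2, was at 127, 92.3 and 105.1 CPM in wild-type mice at 30°C and at 80.3, 97.5 and 81.7 CPM at 8°C. In the mutants it was at 81.2, 81.3 and 91.0 CPM at 30°C and at 71.9, 90.6 and 95.5 CPM at 8°C, so that the 4 groups overlapped except for the genotypes at 30°C. The log2 difference between the wild-type groups was −0.32 (adjusted p = 0.122), and with library totals in place of TMM it was −0.66 (adjusted p = 0.00481). *Keap1*, which holds NRF2 inactive, lay between 60.8 and 80.9 CPM in all 12 libraries, with a log2 fold change by cold of 0.06 in wild-type mice (95% interval −0.183 to 0.30) and of 0.10 in the mutants. With library totals its change in wild-type mice was −0.27 (adjusted p = 0.0419). The NRF2 targets *Nqo1* and *Hmox1* had log2 fold changes of −0.13 and 0.51 by cold in wild-type mice, and of 0.76 (adjusted p = 0.0801) and 0.59 (adjusted p = 0.266) between the genotypes at 8°C. In an edgeR fit of only the libraries compared, *Hmox1* was called higher by cold in wild-type mice (0.53, adjusted p = 0.0171). The difference of *Nqo1* was past the limit in DESeq2 (0.74, adjusted p = 0.0484), with library totals (adjusted p = 0.0306) and without replicate 2 of the mutants at 8°C (adjusted p = 0.0286). *Nqo1* was scarce, at 4.94 to 11.8 CPM over all libraries.

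*Mt1*, a metallothionein that binds zinc and copper, was at 71.1, 89.3 and 97.6 CPM in wild-type mice at 30°C and at 115, 132 and 132 CPM at 8°C, without overlap (log2 0.55, adjusted p = 0.217). This rise was called in an edgeR fit of only the libraries compared (0.57, adjusted p = 0.0181). In the mutants it was at 73.0, 78.6 and 152 CPM at 30°C and at 72.6, 63.1 and 140 CPM at 8°C, with replicate 3 the highest at both temperatures. *Mt2* was at 19.5, 41.6 and 20.7 CPM in wild-type mice at 30°C and at 19.0, 29.0 and 35.2 CPM at 8°C. In the mutants it was at 31.4, 33.6 and 50.7 CPM at 30°C and at 17.7, 11 and 44.9 CPM at 8°C. All 4 groups of *Mt2* overlapped. Counting without strand kept only 1.2% of the sense counts of *Mt2*, 66.2% of those of *Keap1*, 75.4% of those of *Prdx2* and 79.3% of those of *Txnip*.

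Other genes of the pathway were examined as lists. Of 47 further antioxidant genes, 6 rose and 8 fell in wild-type mice in the cold (median log2 0.169). The risen genes are 12.8% of the list, near the 13.2% of all genes, and the fallen ones 17% against 10.9%. The largest values among the called genes were those of *Ggt1*, which cleaves extracellular glutathione (−1.42), and of the methionine sulfoxide reductases *Msra* (1.21) and *Msrb2* (1.16). At 8°C, 1 was higher (2.13%, against 1.91% of all genes) and 3 were lower (6.38%, against 5.45%) in the mutants, both near the shares of all genes. These were led by *Ggt1* (−1.13), *Ggt5* (0.99) and *Ethe1* (−0.78). *Ggt1* was also the 1 gene of this list called at 30°C (−2.04, adjusted p = 0.0158).

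The list of NADPH supply held 18 tested genes, of which 9 (50%, against 13.2% of all genes) rose in wild-type mice in the cold (median log2 0.678). The largest rises were those of the malic enzymes *Me3* (3.08, adjusted p = 6.09e-05) and *Me1* (2.22, adjusted p = 8.88e-04) and of *Pgd* of the pentose phosphate pathway (1.43, adjusted p = 0.00365). At 8°C the mitochondrial *Me3* (−2.79), *Pgls* (−1.10) and the mitochondrial *Idh2* (−0.95) were lower in the mutants (16.7% of the list, against 5.45% of all genes). The response was smaller in the mutants for *Me3* (−3.01), *Me1* (−2.15), *Tkt* (−1.96) and *Pgls* (−1.14), which is 22.2% of the list against 2.07% of all genes. *Me1* was at 2148, 5967 and 2916 CPM in the mutants at 30°C and at 3528, 3470 and 4602 CPM at 8°C. Wild-type mice had 586, 794 and 863 CPM and 3804, 3625 and 3044 CPM, so *Me1* overlapped between the genotypes at 8°C. *Tkt* was at 3317, 7360 and 3541 CPM in the mutants at 30°C and at 1895, 1392 and 2431 CPM in wild-type mice. At 30°C the list had 1 call, *Me1*, which was higher in the mutants (2.30, adjusted p = 0.0187).

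Of 34 further genes known as NRF2-related, 11 rose (32.4%, against 13.2% of all genes) and 2 fell (5.88%, against 10.9%) in wild-type mice. The 3 largest values were those of *Me1*, *Pgd* and *Taldo1* (1.23), which the list of NADPH supply also holds. *Akr1b10* (−0.91) and *Akr1b8* (−0.66) were lower in the mutants at 8°C, which is 5.88% of the list, near the 5.45% of all genes. In the list of heme and iron genes, 4 of 10 (40%, against 13.2% of all genes) rose in wild-type mice. The transferrin receptor *Tfrc* (1.33), the iron exporter *Slc40a1* (0.81) and ferritin heavy chain *Fth1* (0.58) led. *Cp* was higher (0.82) and *Hmox2* lower (−0.39) in the mutants at 8°C, each 10% of the list, against 1.91% and 5.45% of all genes. Of 76 subunits of oxidative phosphorylation, 72 (94.7%, against 13.2% of all genes) rose in wild-type mice (median 1.49) and 1 (1.32%, against 0.181%) in the mutants (median 0.373). At 8°C, 66 (86.8%, against 5.45% of all genes) were lower in the mutants (median −0.998). The leading genes were *Cox7a1* (6.17), *Cox8b* (4.19) and *Cyc1* (2.17) by cold, and *Cox7a1* (−3.46), *Cox8b* (−2.01) and *Cox5a* (−1.62) between the genotypes. The medians of the 5 mitochondrial matrix members, 1.28 by cold in wild-type mice and −0.802 between the genotypes at 8°C, stood near those of these subunits, and no test was made of the likeness.

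**Figure D5:**
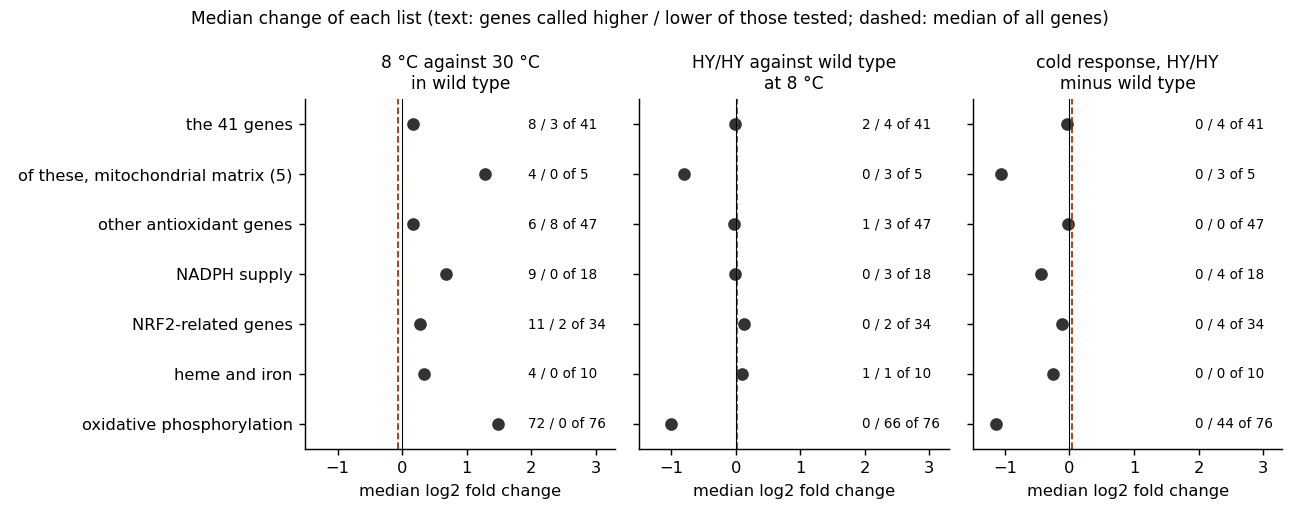
Median log2 fold change of the 41 genes, of their 5 mitochondrial matrix members and of 5 other gene lists in 3 comparisons (x axis, log2), with the numbers of genes called higher and lower out of those tested. The dashed line is the median of all 16540 genes; the mitochondrial matrix members and the oxidative phosphorylation subunits lie farthest from it in each panel.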

How the data were processed

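The authors trimmed paired 50-base reads with fastp, mapped them with STAR to mm10, and deposited raw counts of read pairs per GENCODE M25 gene (versions are not given in the sources used here). Sense-strand counts were used, of 13592629 to 26352081 per library, and 95.5% to 96.2% of the counts of both strands lay on that strand. All 12 libraries were fitted with edgeR 4.0.16 (R 4.3.3, filterByExpr, TMM, quasi-likelihood test, 1 mean per group, 8 residual degrees of freedom), with Benjamini-Hochberg adjustment over 16540 genes and two-sided p-values. Alternatives were DESeq2 1.42.0, library totals, no filter, both strands, a replicate block, other limits and each library left out. An exact permutation test of 3 against 3 cannot go below p = 0.1 and was not used for calls. In simulated counts of 16540 genes, log2 changes of 1 were recovered in 50% of cases for cold in wild-type mice and in 15% for the difference of the responses, and changes of 2 in 91% and 75%. The simulation gave each gene the same spread in all groups and left out cold in the mutants. In the data, chi-square per degree of freedom between replicates was 84.8 to 176.2 in the mutants at 30°C and 10.78 to 18.06 in wild-type mice at 8°C. Same-numbered mutant libraries at 30°C and 8°C had correlated deviations of 0.112, 0.199 and 0.303. In the other pairs of groups these correlations ranged from −0.0695 to 0.346, and 5 of 12 libraries correlated best with their own number. The labels give no shared litter or day. Every called member is named. Values of all libraries are given for the members whose responses differed, for the 2 largest rises and 2 largest falls of each comparison and for the member with the highest mean CPM of each role, and the other lists name their 3 largest called changes by cold in wild-type mice and between the genotypes at 8°C. The members and lists were chosen with earlier results of these data known.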

Additional observations from a re-analysis of the deposited data

Results flagged for a closer look

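The cold response differed between the genotypes, by the interaction term of the edgeR fit, in 4 of the 41 genes. The mutant response minus the wild-type response was −1.495 on the log2 scale for *Sod2* (adjusted p = 0.0146), −1.35 for *Txnrd2* (adjusted p = 0.0113), −1.06 for *Txn2* (adjusted p = 0.0357) and −0.69 for *Prdx5* (adjusted p = 0.0487). In *Txnrd2* and *Txn2* the 3 mutant libraries at 8°C overlapped those at 30°C, and in *Sod2* they lay above them.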

How the results depend on the processing

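The number of members called in wild-type mice by cold, 11, rose to 18 with library totals alone, to 18 with only the libraries compared and to 17 with the replicate block, and lay between 9 and 16 with 1 library left out. In the mutants, 0 became 2 with DESeq2 and 3 with the block, and 0 to 6 with 1 library left out. Between the genotypes at 8°C, 6 became 10 with DESeq2, 9 with library totals, 13 with only the libraries compared, 7 with the block and 3 at an adjusted p under 0.01, and 3 to 8 with 1 library left out. At 30°C, 0 became 2 with DESeq2, 2 with no low-count filter and 3 with the block, and 0 to 2 with 1 library left out (2 without replicate 1 of the mutants at 30°C). For the difference of the responses, 4 became 8 with DESeq2, 2 with library totals, 5 with the block and 0 at an adjusted p under 0.01, and 1 to 6 with 1 library left out. The cause was not tested. The calls of *Sod2*, *Gpx4*, *Prdx3*, *Prdx5*, *Srxn1*, *Txn2*, *Txnrd2*, *Glrx* and *Gstt1* in wild-type mice held in all alternatives. The change of *Keap1* by cold in wild-type mice, 0.06, reversed to −0.27 with library totals alone. Over all members and alternatives, 3921 values kept their side of the limit, 48 lost and 84 gained a call, and 1 reversed. The direction was compared only where at least 1 of the fits made a call, so uncalled values may have changed sign.

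The replicate number was tried as a block because the groups share numbers. Of 18 pairs of same-numbered libraries, 11 correlated by more than 0.1 (lowest −0.0695, highest 0.346), and 5 of 12 libraries correlated best with their own number.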
